A study of Mus musculus with 10 samples.

Results

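The TGF-beta and BMP pathway genes described here are 50 named genes, taken by symbol from the 56750 features of a table of RNA-seq counts from mouse sarcomas. They comprise 16 ligands, 11 receptors and co-receptors, 8 Smad proteins, 6 secreted antagonists, 1 follistatin-like protein (Fstl1), 4 latent TGF-beta binding proteins and 4 Id genes. All 50 symbols were found once each, and all 50 genes passed the filter on low counts. The rule used the role of each gene and no value of the table, but the list was chosen with earlier results of these data known. Its shares set against all tested genes below describe the list and do not test it.

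Bulk tumors of 2 mouse models of sarcoma were compared. The dFLEx group held 3 tumors (170019, 170024 and 170025) with the genotype dFLEx CDS +/-, in which a CIC::DUX4 fusion with an HA tag, inserted at Rosa26 behind a CAG promoter, is put in frame once Cre and FLP have both acted. These tumors arise where plasmids coding for Cre and FLPE are electroporated into the gastrocnemius muscle of young adult mice. The KP group held 2 tumors (3800 and 3802) that carry p53fl/fl, so that Cre removes p53, along with a further engineered allele that is not reported here, and the age of these mice and the site of their tumors are not given in the sources used here. The groups share no engineered allele, so the fusion, the alleles of the KP tumors and the way of inducing the tumor cannot be told apart as the source of a difference. Each tumor's RNA was split into 2 libraries depleted of ribosomal RNA, and the table holds 9 of the 10 labelled libraries. For 3802 a single library was used, and its other library was not analysed here.

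TGF-beta family ligands bind pairs of type I and type II receptor kinases. TGF-beta and activin signals are carried mainly by Smad2 and Smad3, and BMP signals by Smad1, Smad5 and Smad9, in each case together with Smad4. Antagonists such as noggin and gremlin hold BMP ligands outside the cell, latent TGF-beta binding proteins hold TGF-beta in the matrix, and Smad6, Smad7 and the Id genes are induced by the pathway, the inhibitory Smads then damping it. In limb mesenchyme BMP signals are known for driving cartilage and bone formation.

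Library totals ran from 20503474 to 46302223 counts, and 3802, with the lowest total, had the most features with a count (36904). The transgene feature separated the groups as labelled, with 4238, 11623 and 33600 counts in 170019, 170024 and 170025, 0 counts in 3800 and 6 counts in 3802. Levels below are RPKM, read counts divided by exonic length and by TMM-scaled library size, a scale that allows levels of different genes to be compared. The tumor was the replicate, and edgeR's quasi-likelihood test was run over 24743 genes with Benjamini-Hochberg adjustment over all of them. The labels do not say how the tumors of a group relate, and p-values measure the spread between these tumors. Tumors also differed by gene length. In 170025 and 3800 long genes (the upper quartile by length, 6685 exonic bases or more) lay a median of 0.70 and 0.69 above the mean of the 5 tumors on the log2 scale, and in 170019 and 3802 their medians were -0.67 and -0.56. In 170024 their median was -0.17. For long genes each group thus holds a tumor of either kind. Short genes (the lower quartile by length, 2566 exonic bases or fewer) had medians of 0.55, 0.24 and -0.36 in 170019, 170024 and 170025. In 3800 and 3802 their medians were -0.42 and -0.04. Fold changes with the trend on length and GC content removed, an alternative chosen after seeing the data, are given beside results that they move by over 1.5-fold. The tumors also differed in the reads of 1193 olfactory receptor genes, which are mainly used in the nose. These stood at 0.00294 to 0.0227 RPKM in dFLEx tumors, 0.00745 RPKM in 3800 and 0.103 RPKM in 3802, which stood apart.

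The 50 genes were first compared between the groups as a whole. BMP ligands (Bmp4, Bmp7), Id genes (Id1, Id3, Id4), inhibitory Smads (Smad6, Smad7) and the receptor gene Acvrl1 had all 3 dFLEx levels above both KP levels, the BMP antagonist gene Grem1 was lower in every dFLEx tumor, and most receptors, the receptor Smads other than Smad9, and Smad4 overlapped between groups. None of the 50 passed the adjusted threshold of 0.05, in either direction. Over all tested genes 0.101% passed it higher and 0.0808% lower in dFLEx tumors. At an unadjusted p under 0.05 there were 11 members higher, or 22% of the 50, where the share over all tested genes was 5.65%, and 2 lower, or 4% of the 50, where it was 4.93%. DESeq2 on the same tumor sums called 7 members higher (Acvrl1, Bmp4, Bmp7, Id1, Id3, Id4 and Smad6), or 14%, against 3.78% of the genes it tested, and 1 lower (Grem1), or 2%, against 2.88%. In 13 members, or 26%, the lowest dFLEx level exceeded the higher KP level, against 13.7% of all tested genes, and in 1 member, Grem1, every dFLEx tumor lay below both, against 11.7%. The median log2 fold change was 0.52 over the 50 and -0.18 over all tested genes, and 33 of the 50 were above 0. In bulk tumors, fewer cells of a type and less RNA per cell cannot be told apart.

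**Figure D1:**
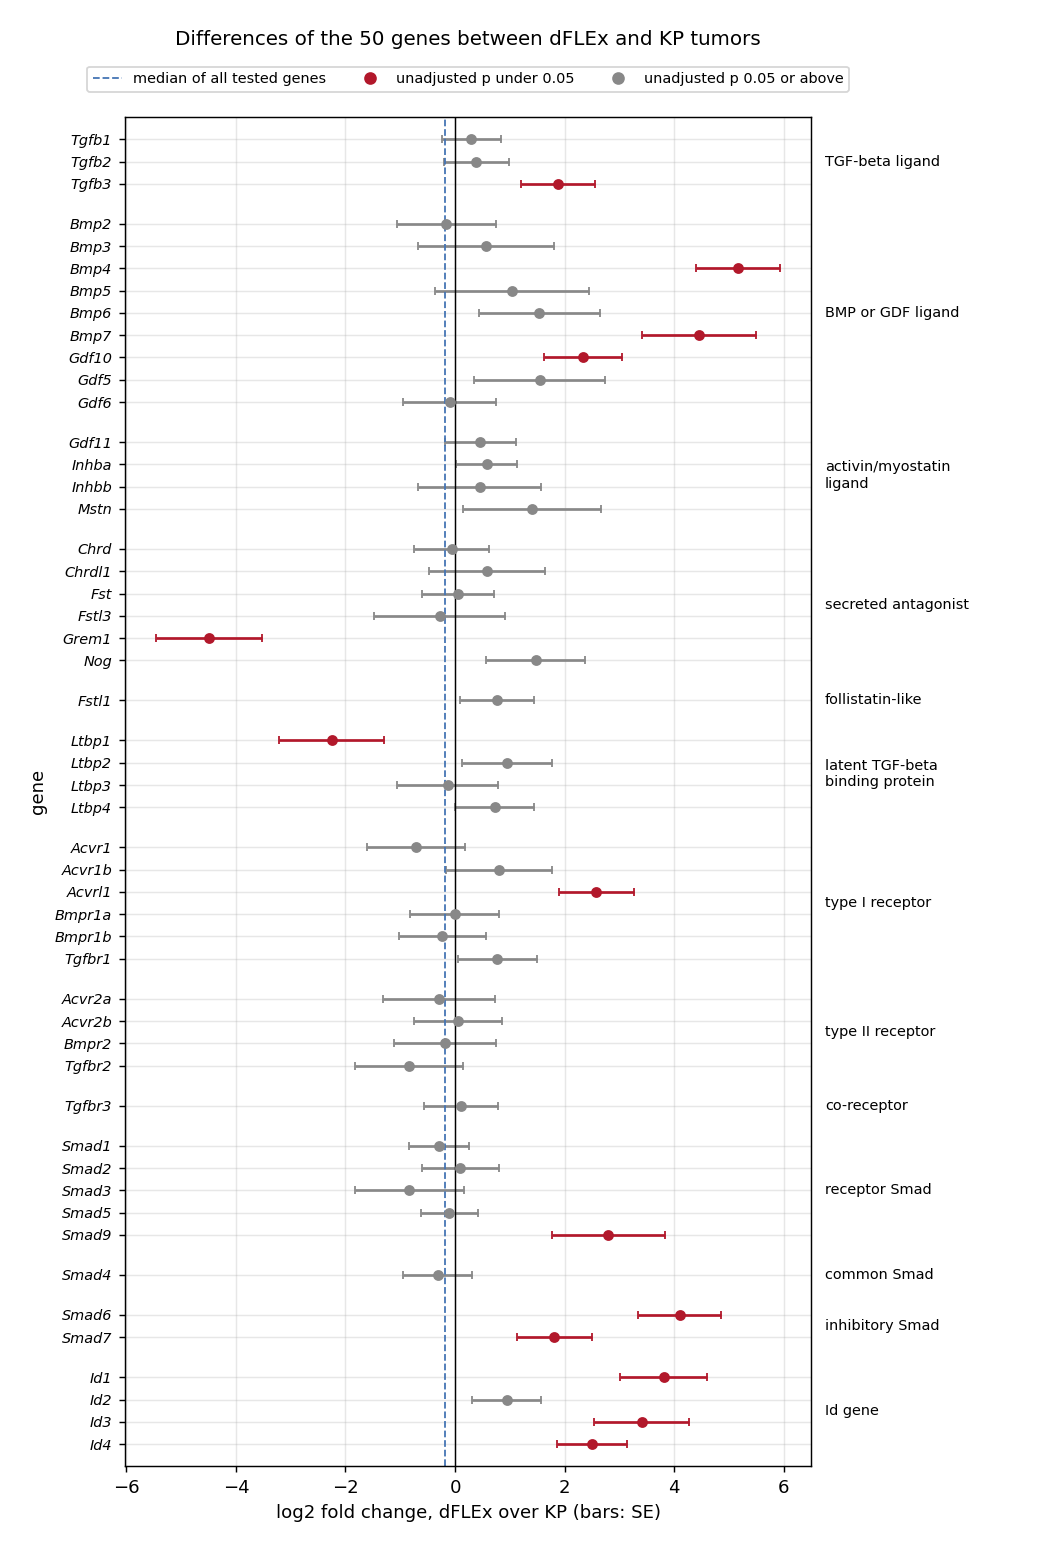
Log2 fold change of each of the 50 genes, dFLEx over KP, from edgeR on tumor sums (x axis; bars are SE), grouped by role (y axis), with genes at an unadjusted p under 0.05 in red. The 11 red points on the right lie between 1.81 (Smad7) and 5.16 (Bmp4), and the 2 on the left are Grem1 and Ltbp1.

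Bmp4 had the largest log2 ratio of dFLEx over KP levels (the fitted log2 fold change, given with its SE) among the 16 ligands. Bmp4 (chromosome 14, 46620977 to 46628126), a BMP that patterns limb and skeletal mesenchyme, had 43.3, 23.6 and 47.2 RPKM in 170019, 170024 and 170025, and 0.777 and 1.36 RPKM in 3800 and 3802. The groups did not overlap, and the lowest dFLEx level stood 17.4-fold above the higher KP tumor. The group levels were 38 ± 12.6 RPKM (SD, n = 3) and 1.07 ± 0.409 RPKM (SD, n = 2), a log2 ratio of 5.16 (SE 0.77, adjusted p 0.0664). Without 3802, which leaves 3800 as the only KP tumor, its log2 fold change was 5.63. With the length and GC trend removed it was 4.76 with an adjusted p of 0.039 (edgeR). That setting called 173 of all 24743 tested genes, against 45 with no trend removed.

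Bmp7 (chromosome 2, 172709805 to 172782114), which like Bmp4 signals through the BMP receptors and is known for kidney and bone formation, had 18.2, 8.25 and 24.3 RPKM in 170019, 170024 and 170025, against 1.32 and 0.212 RPKM in 3800 and 3802. All dFLEx tumors were higher, the lowest of them 6.26-fold above 3800, and its log2 ratio was 4.46 (SE 1.04, adjusted p 0.152). The KP tumors differed 6.20-fold in Bmp7, so the log2 fold change was 6.48 without 3800 and 3.70 without 3802. Gdf10 (chromosome 14, 33645544 to 33659940), also called Bmp3b, was low throughout, with 2.35, 1.25 and 1.17 RPKM in the dFLEx tumors in the same order and 0.248 and 0.382 RPKM in the KP tumors, a log2 ratio of 2.34 (SE 0.72, adjusted p 0.264).

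Bmp2, the closest relative of Bmp4, overlapped between groups. It had 14.8, 8.30 and 12.3 RPKM in 170019, 170024 and 170025 and 24.0 and 2.29 RPKM in 3800 and 3802, so the dFLEx tumors lay between the KP tumors. In each dFLEx tumor Bmp2 was below Bmp4, at 0.260 to 0.351 of its level, and in the KP tumors it was 1.69 and 30.9 times the level of Bmp4 in 3802 and 3800. Bmp3, Bmp5, Bmp6, Gdf5 and Gdf6, the other BMP and GDF ligands of the list, stayed between 0.0247 and 1.54 RPKM in all 5 tumors and overlapped between groups. Of the exonic bases of Bmp5 and Gdf5, 46.7% and 40.3% are shared with an overlapping gene on the other strand, and reads over several genes were not counted.

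Among the 3 TGF-beta ligands, Tgfb3 (chromosome 12, 86103519 to 86125815) had 37.1, 46.5 and 71.2 RPKM in 170019, 170024 and 170025 and 20.3 and 7.76 RPKM in 3800 and 3802. Every dFLEx tumor was above both KP tumors, and the log2 ratio was 1.88 (SE 0.68, adjusted p 0.368), or 1.36 without 3802 and 2.90 without 3800. Tgfb1, the form most widely made by immune and stromal cells, had 30.8, 31.8 and 26.9 RPKM in the dFLEx tumors and 18.3 and 30.3 RPKM in the KP tumors, and Tgfb2 had 1.72 to 3.69 RPKM. Both overlapped between groups. Tgfb3 was 1.21 to 2.64 times the level of Tgfb1 in dFLEx tumors, 1.11 times in 3800 and 0.256 times in 3802.

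The activin and myostatin group did not give a member with an unadjusted p under 0.05. Inhba, the activin A subunit, had 16.0, 15.5 and 14.1 RPKM in the dFLEx tumors and 12.9 and 7.38 RPKM in the KP tumors, and the groups did not overlap (unadjusted p above 0.05). Inhbb had 0.420 to 10.9 RPKM, with its lowest level in 3802 and its highest in 170025. Gdf11 had 2.06 to 5.75 RPKM, and Mstn (myostatin, made by skeletal muscle) had 0.0695 to 2.88 RPKM, lowest in 3800 and highest in 170024. The same tumors were at the ends of the range for 9 muscle markers (Acta1, Ckm and Myh4 among them), which summed to 1576 CPM (counts scaled to library size) in 3800, the lowest, and to 36345 CPM in 170024, the highest. Between these ends the orders differed. In 170019 the muscle markers summed to 9732 CPM and Mstn had 0.432 RPKM, and in 3802 they summed to 4845 CPM and Mstn had 1.29 RPKM. The part of muscle in the level of Mstn was not tested.

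All 16 ligands together summed to 151 to 222 RPKM in dFLEx tumors and 56.7 to 93.5 RPKM in KP tumors. Bmp4 made up 15.6 to 25.2% of that sum in dFLEx tumors and 0.831% and 2.39% in 3800 and 3802, where the largest parts were Bmp2 (25.7%) and Tgfb1 (53.4%).

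**Figure D2:**
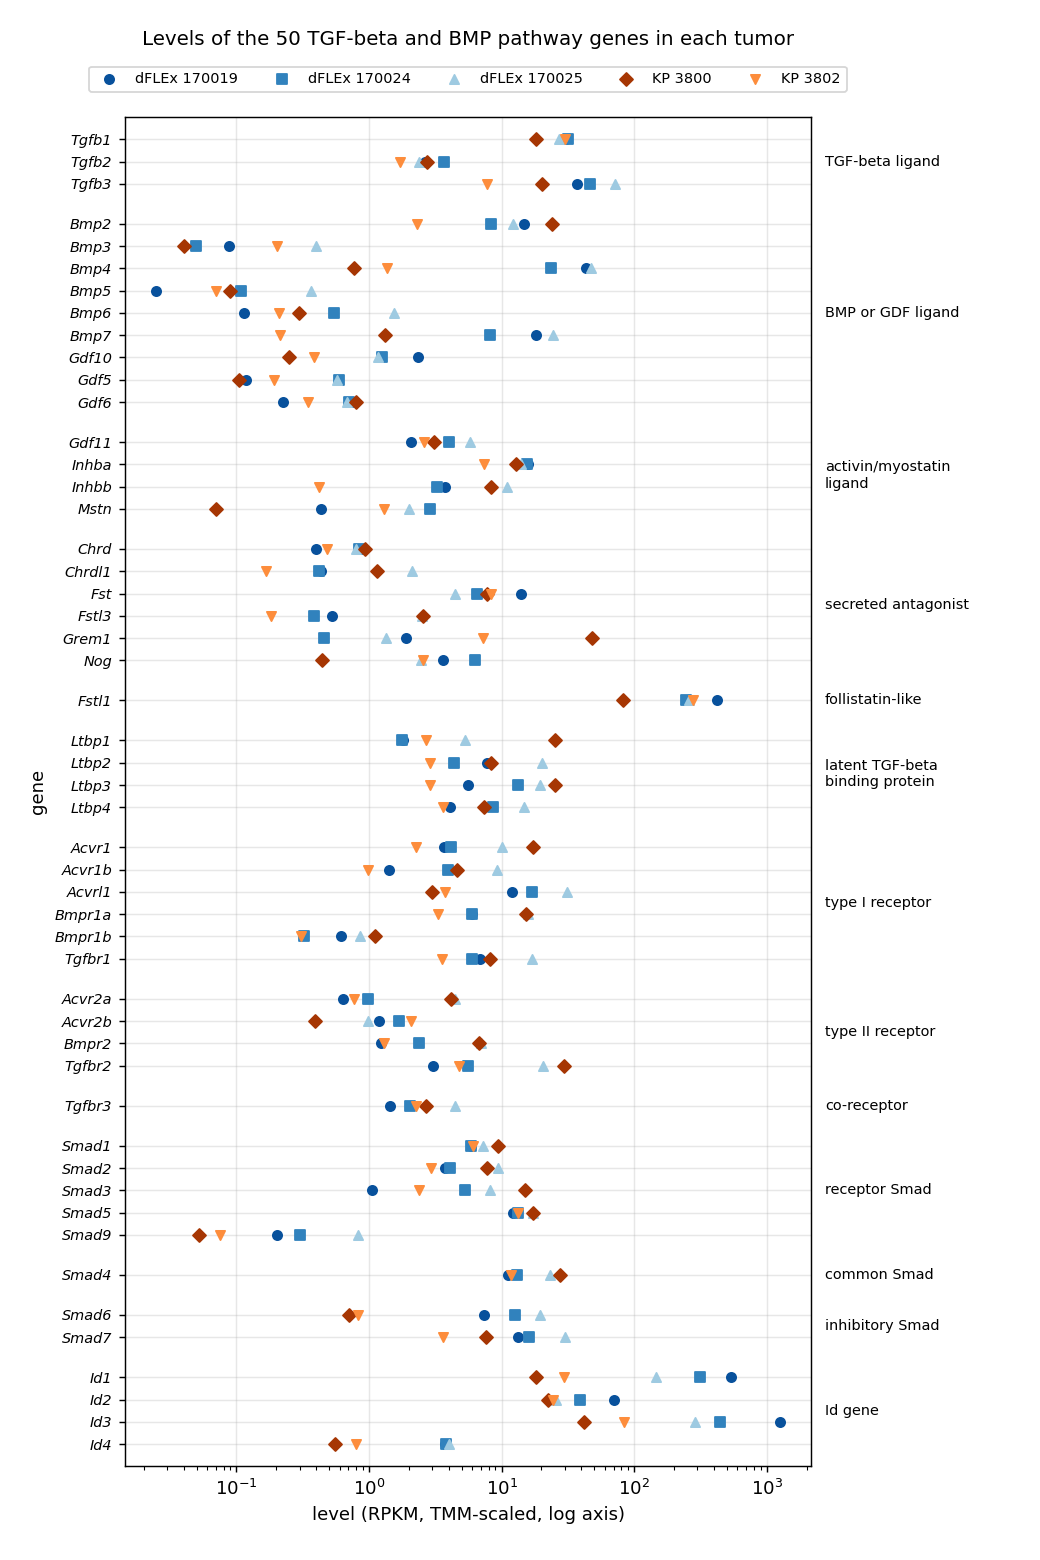
Level of each of the 50 genes in each tumor (x axis, RPKM, log axis), grouped by role (y axis), with dFLEx tumors in blue and KP tumors in orange and brown. Blue and orange points are set apart for Bmp4, Bmp7, Smad6, Id1, Id3, Id4 and, in the other order, Grem1, while the points of most receptors and Smads are mixed.

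Of the 6 secreted antagonists, Grem1 alone had an unadjusted p under 0.05. Grem1 (chromosome 2, 113576509 to 113588991) encodes gremlin, which binds Bmp2, Bmp4 and Bmp7, and had 1.91, 0.460 and 1.35 RPKM in 170019, 170024 and 170025 against 48.2 and 7.29 RPKM in 3800 and 3802. No dFLEx tumor reached either KP tumor, the lower of which, 3802, was 3.82-fold above the highest dFLEx tumor. Its log2 ratio was -4.49 (SE 0.97, adjusted p 0.128). The KP tumors differed 6.62-fold, and the log2 fold change was -2.40 without 3800 and -5.27 without 3802, each leaving the other as the only KP tumor. Set side by side within a tumor, Bmp4 was 22.7 to 51.4 times the level of Grem1 in dFLEx tumors, whereas Grem1 was 5.38 to 62.1 times the level of Bmp4 in KP tumors. Each gene sets the groups apart by itself, in opposite directions, so their ratio must do so too and is a description only.

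Nog (noggin) had 3.60, 6.33 and 2.49 RPKM in 170019, 170024 and 170025 and 0.444 and 2.57 RPKM in 3800 and 3802, so 3802 fell among the dFLEx tumors. Fst (follistatin, an activin inhibitor) had 4.45 to 14 RPKM, highest in 170019 and lowest in 170025 with both KP tumors between them. Chrd (chordin), Chrdl1 and Fstl3 stayed between 0.168 and 2.58 RPKM and overlapped, and 47.3% of the exonic bases of Fstl3 are shared with Prss57 on the other strand. Fstl1, a secreted glycoprotein abundant in mesenchyme, was among the 3 highest of the 50 genes in both groups, at 423, 245 and 258 RPKM in the dFLEx tumors and 81.8 and 281 RPKM in the KP tumors, and 3802 lay among the dFLEx tumors.

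Among the receptors, Acvrl1 (ALK1, the type I receptor that endothelial cells use for BMP9 and BMP10) set the groups apart. Acvrl1 (chromosome 15, 101026403 to 101043217) had 12.1, 17.0 and 31.2 RPKM in 170019, 170024 and 170025 and 2.99 and 3.76 RPKM in 3800 and 3802. Each dFLEx tumor was at least 3.21-fold above both KP tumors, and the log2 ratio was 2.58 (SE 0.68, adjusted p 0.202), or 2.09 without 170025. The 8 endothelial genes together (Pecam1, Cdh5, Erg, Kdr, Tie1, Emcn, Vwf and Cldn5) summed to 351 to 606 CPM in dFLEx tumors and 198 to 213 CPM in KP tumors. Of the 8, 1 (Pecam1) was higher at an unadjusted p under 0.05, where the share over all tested genes was 5.65%. Pecam1, Tie1 and Emcn were above both KP tumors in every dFLEx tumor, and Cdh5, Erg, Kdr, Vwf and Cldn5 overlapped between groups. Cldn5 was highest in 3802, with 72.4, 51.9 and 18.2 RPKM in the dFLEx tumors and 13.2 and 77.1 RPKM in the KP tumors, and Vwf had 1.73, 1.68 and 1.91 RPKM and 2.24 and 1.11 RPKM. None of the 8 was at 0 in a tumor. The level of Acvrl1 was 0.80 to 0.945 times that of Pecam1 in dFLEx tumors, 0.491 times in 3800 and 0.920 times in 3802. The part of endothelial cells in the difference was not tested.

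The other type I receptors (Tgfbr1, Bmpr1a, Bmpr1b, Acvr1 and Acvr1b), the type II receptors (Tgfbr2, Bmpr2, Acvr2a and Acvr2b) and the co-receptor Tgfbr3 (betaglycan) overlapped between groups. Tgfbr2, the receptor that TGF-beta binds first, had 3.04, 5.59 and 20.4 RPKM in the dFLEx tumors and 29.8 and 4.81 RPKM in the KP tumors. Bmpr1a had 5.98, 5.95 and 15.9 RPKM and 15.3 and 3.33 RPKM, and Acvr1 had 3.66, 4.13 and 10.1 RPKM and 17.3 and 2.28 RPKM. In 9 of the 11 receptor and co-receptor genes the 2 highest tumors were 170025 and 3800, 1 of each group, which are the tumors with the raised signal of long genes, and the part of gene length in this order was not tested. The exceptions were Acvrl1 and Acvr2b. The median exonic length of these 11 genes was 5962 bases, and that of the 4 Id genes 2114.5 bases.

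Of the receptor and common Smads, all but Smad9 overlapped between groups. Smad5 and Smad4 were the highest receptor and common Smads, at 12.2 to 17.3 and 11.2 to 27.8 RPKM over the 5 tumors, and Smad1 had 5.88 to 9.41 RPKM. Smad2 and Smad3 had 2.92 to 9.36 and 1.05 to 14.9 RPKM. Smad9, also called Smad8, was the lowest of the family, with 0.204, 0.30 and 0.824 RPKM in the dFLEx tumors and 0.0526 and 0.0757 RPKM in the KP tumors. Its log2 ratio was 2.79 (SE 1.03, adjusted p 0.377), from 10 to 351 counts a tumor, and was 1.96 without 170025. Its level in 3802 was below that of the olfactory receptor genes there, as was the level of Bmp5.

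The inhibitory Smads were both higher in every dFLEx tumor. Smad6 (chromosome 9, 63860358 to 63929341), which blocks BMP receptors in particular, had 7.33, 12.6 and 19.4 RPKM in 170019, 170024 and 170025, and 0.704 and 0.824 RPKM in 3800 and 3802. The KP levels were close together, the lowest dFLEx level stood 8.89-fold above them, and the log2 ratio was 4.10 (SE 0.76, adjusted p 0.0936). Smad7 (chromosome 18, 75500600 to 75529006), which blocks TGF-beta and BMP receptors alike, had 13.3, 16.1 and 29.9 RPKM in the dFLEx tumors and 7.60 and 3.64 RPKM in the KP tumors, a log2 ratio of 1.81 (SE 0.68, adjusted p 0.391), or 2.61 without 3800. Smad6 stood at 0.550 to 0.782 of the level of Smad7 in dFLEx tumors and at 0.0927 to 0.226 of it in KP tumors. With the length and GC trend removed the log2 fold changes were 3.21 for Smad6 and 1.31 for Smad7. Both were lowest in 170019 and highest in 170025 among the dFLEx tumors, the reverse of Id1 and Id3 below.

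The Id genes, whose proteins block the DNA binding of basic helix-loop-helix factors, held the highest level of the whole list. Id3 (chromosome 4, 135870808 to 135873066) had 1261, 448 and 286 RPKM in 170019, 170024 and 170025, and 42 and 83.5 RPKM in 3800 and 3802. Its log2 ratio was 3.41 (SE 0.86, adjusted p 0.187), or 2.48 without 170019, the tumor with the highest level, 4.00 without 3802 and 2.77 with the length and GC trend removed. Id1 (chromosome 2, 152578171 to 152579330) had 538, 317 and 147 RPKM in 170019, 170024 and 170025, and 18.3 and 29.4 RPKM in 3800 and 3802. The lowest dFLEx level stood 5.01-fold above the higher KP tumor, and the log2 ratio was 3.81 (SE 0.79, adjusted p 0.12). With the length and GC trend removed it was 3.18 with an adjusted p of 0.0484 (edgeR), past the threshold. That setting called 173 of all tested genes, against 45 with no trend removed.

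Id4 (chromosome 13, 48414704 to 48419502) had 3.72, 3.78 and 4.03 RPKM in 170019, 170024 and 170025, and 0.558 and 0.802 RPKM in 3800 and 3802. It was the least variable of the 50 genes among dFLEx tumors, which differed 1.08-fold, and its log2 ratio was 2.50 (SE 0.63, adjusted p 0.186). Id2, the member of the family that many other signals also induce, had 70.6, 39.2 and 25.7 RPKM in the dFLEx tumors and 22.4 and 24.7 RPKM in the KP tumors. These did not overlap, but 170025 lay only 1.04 times above 3802. Id2 made up 3.77 to 5.55% of the summed level of the 4 Id genes in dFLEx tumors and 17.8 to 26.9% in KP tumors. Id1, Id2 and Id3 were highest in 170019 and lowest, among dFLEx tumors, in 170025. Id1 and Id3 have 1160 and 1791 exonic bases, and short genes (the lower quartile by length, 2566 bases or fewer) lay a median of 0.55 above the mean of the 5 tumors in 170019 and of -0.36 in 170025, on the log2 scale. The part of gene length in the order of Id1, Id2 and Id3 was not tested.

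**Figure D3:**
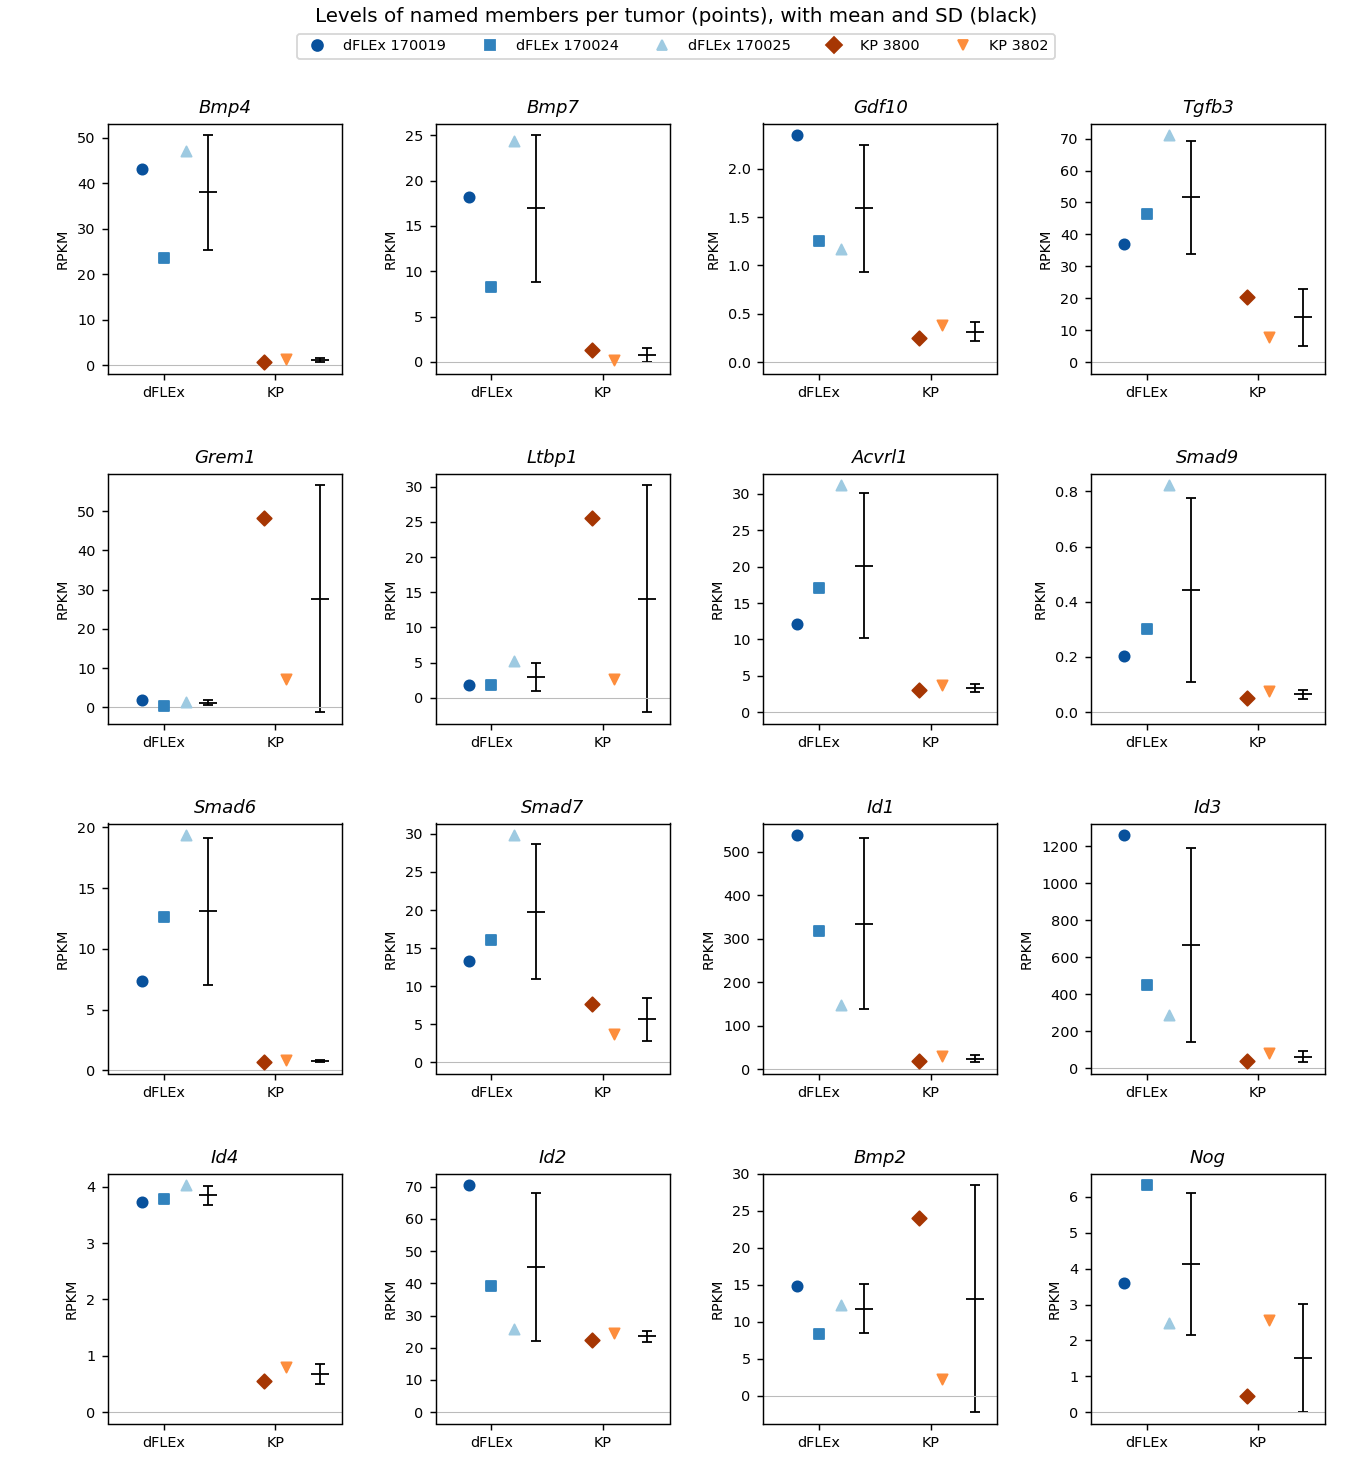
Level in RPKM (y axis, linear, a scale for each gene) of the 13 genes at an unadjusted p under 0.05 and of Id2, Bmp2 and Nog for comparison, in each dFLEx and KP tumor (points), with the group mean and SD in black (n = 3 and n = 2). The dFLEx points lie above the KP points in 11 of the 13 genes and below them in Grem1, and in Ltbp1 they overlap.

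The latent TGF-beta binding proteins gave no difference that held in every tumor. Ltbp1 (chromosome 17, 75312563 to 75699507), a matrix carrier of latent TGF-beta, had 1.82, 1.76 and 5.30 RPKM in 170019, 170024 and 170025, and 25.5 and 2.69 RPKM in 3800 and 3802. The value of 3800 stood alone, and 3802 lay among the dFLEx tumors. The log2 ratio was -2.25 (SE 0.95, adjusted p 0.459), and without 3800, which leaves 3802 as the only KP tumor, it turned to 0.31. Ltbp2, Ltbp3 and Ltbp4 had 2.90 to 20.3, 2.89 to 25.2 and 3.62 to 14.7 RPKM and overlapped. Ltbp1 was 0.132 to 0.326 times the level of Ltbp3 in dFLEx tumors and 0.931 to 1.01 times in KP tumors, a description chosen after the values were seen.

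**Figure D4:**
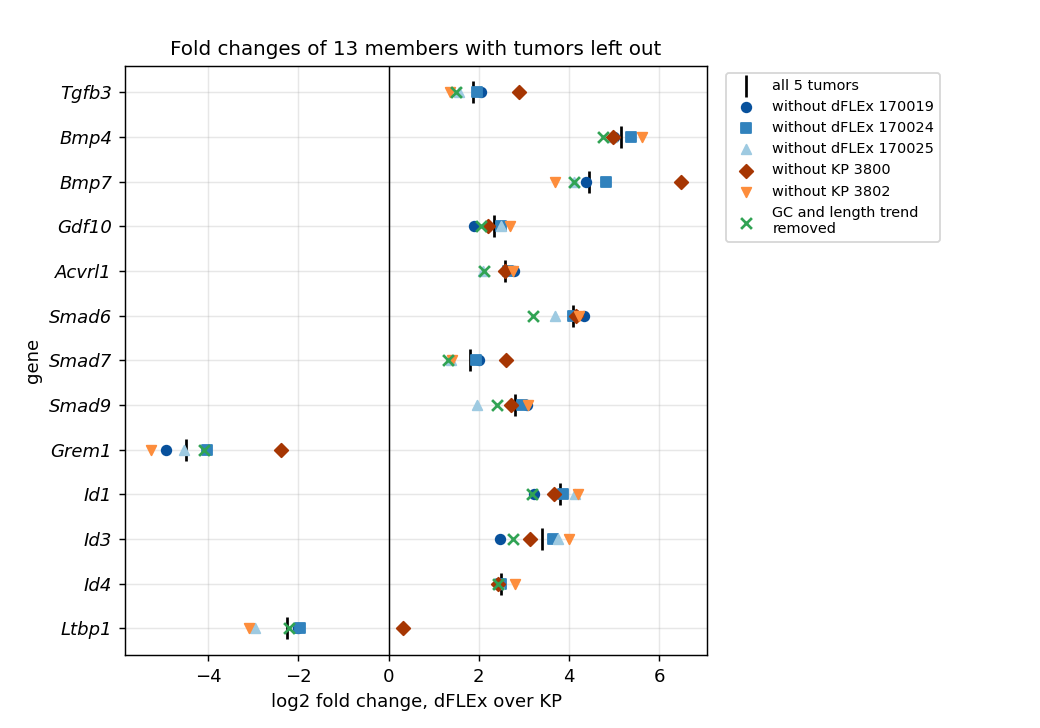
Log2 fold change, dFLEx over KP (x axis), of the 13 genes at an unadjusted p under 0.05 (y axis), with all 5 tumors (black bars), with each tumor left out, and with the trend on GC content and length removed (green crosses). Values without 3800 lie farthest from those with all tumors for Bmp7, Grem1 and Ltbp1, and Ltbp1 crosses 0.

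The 37 genes not named with a fold change had log2 fold changes from -0.84 to 1.55 with SEs from 0.53 to 1.41 and adjusted p-values of 0.717 or more (edgeR). Over the 50 genes the highest dFLEx tumor was a median of 2.90-fold above the lowest, and the KP tumors differed by a median of 2.35-fold. Duplicate libraries of one tumor differed far less, by medians of 1.05-fold to 1.14-fold over members with 100 counts or more in both.

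To see whether other parts of the pathway moved with the members, 83 further genes were listed by role, of which 73 passed the filter. This list too was chosen with earlier results of these data known. None passed the adjusted threshold. At an unadjusted p under 0.05, 12 of the 73 were higher, or 16.4%, against 5.65% of all tested genes, and 5 lower, or 6.85%, against 4.93%. DESeq2 on tumor sums called 7 of the 70 genes it tested higher (Amhr2, Atoh8, Bmper, Ccn2, Dlx5, Hey1 and Sp7), or 10%, against 3.78%, and 1 lower (Cdkn2b), or 1.43%, against 2.88%. Their median log2 fold change was 0.00153.

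The 8 listed genes that BMP signals are known to induce had a median log2 fold change of 2.06, the highest of the 6 roles listed. Of the 8, 4 were higher at an unadjusted p under 0.05, where the share over all tested genes was 5.65%. In each of the 4 the groups did not overlap, and 13.7% of all tested genes had every dFLEx tumor above both KP tumors. The median lies in the gap between these 4 and the 4 whose groups overlapped, and stands for no single gene. Sp7 and Dlx5, with few counts in KP tumors, enter it. Hey1, a Notch and BMP target, had 51.0, 25.7 and 28.2 RPKM in 170019, 170024 and 170025 and 2.49 and 3.19 RPKM in 3800 and 3802, a log2 ratio of 3.62 (SE 0.68, adjusted p 0.097). Atoh8, an endothelial and cartilage target of BMP signals, had 12.9, 12.8 and 13.7 RPKM in the dFLEx tumors and 1.38 and 0.924 RPKM in the KP tumors, a log2 ratio of 3.50 (SE 0.65, adjusted p 0.0942), or 2.34 with the length and GC trend removed. Sp7 (osterix), a factor of the bone lineage, had 202, 529 and 318 counts in 170019, 170024 and 170025, and 2 counts in each KP tumor. Dlx5, another bone factor, had 88, 134 and 170 counts in the dFLEx tumors, 0 in 3800 and 3 in 3802, and no fold change is given against counts this low. Msx1, Msx2, Dlx6 and Runx2 overlapped between groups, and Msx2 had at most 14 counts in a tumor.

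Targets of TGF-beta had values in both directions. Of 9 listed, Ccn2 (CTGF) was higher at an unadjusted p under 0.05 and Cdkn2b (p15) was lower. Ccn2 had 226, 130.1 and 106 RPKM in the dFLEx tumors and 7.86 and 37.9 RPKM in the KP tumors, with a log2 ratio of 2.75 (SE 0.84, adjusted p 0.263), or 4.31 without 3802. Cdkn2b had 19.4, 15 and 10.9 RPKM and 207 and 69.0 RPKM, with a log2 ratio of -3.19 (SE 0.66, adjusted p 0.12), or -2.03 without 3800. The matrix genes Fn1 and Postn, along with Tgfbi, Timp1, Bhlhe40 and Acta2, had unadjusted p-values above 0.05, though Postn and Bhlhe40 were above both KP tumors in every dFLEx tumor and Acta2 was below both. Tagln had 0.401 to 1.06 RPKM, and 67.9% of its exonic bases are shared with other features, over which reads were not counted.

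**Figure D5:**
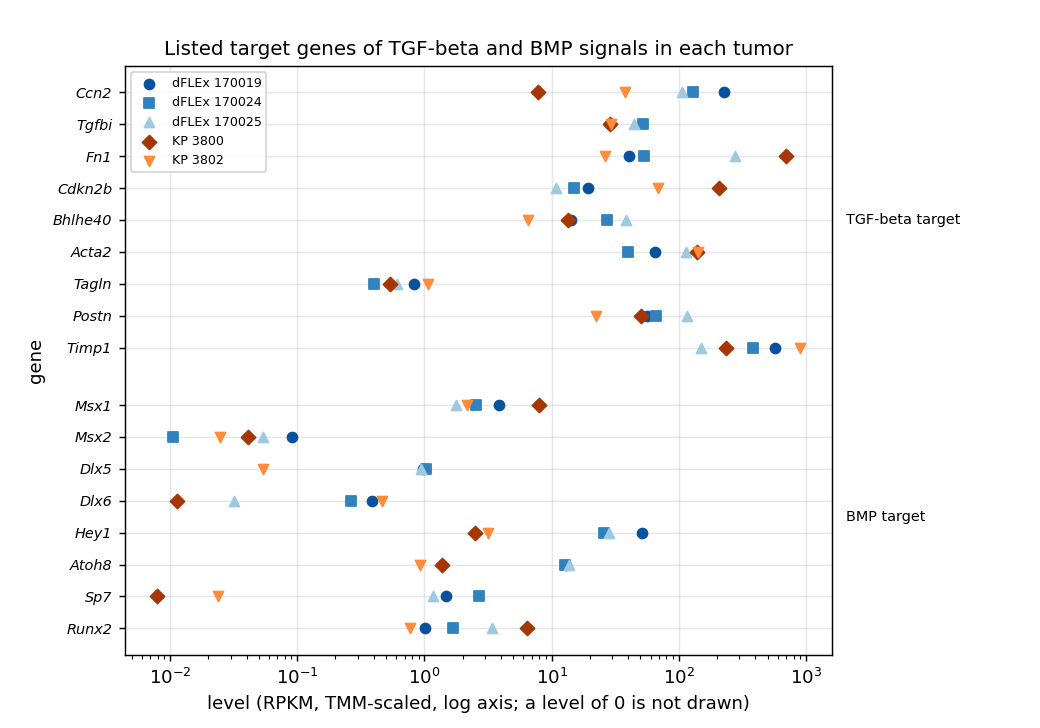
Level (x axis, RPKM, log axis) of the 9 listed TGF-beta targets and the 8 listed BMP targets in each tumor, with dFLEx tumors in blue and KP tumors in orange and brown, and a level of 0 (Dlx5 in 3800) left out. The dFLEx points lie above the KP points for the BMP targets Hey1, Atoh8, Sp7 and Dlx5 and the TGF-beta targets Ccn2, Postn and Bhlhe40, and below them for Cdkn2b and Acta2.

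Among 8 tested receptors and co-receptors outside the 50, Eng (endoglin, the co-receptor that works with Acvrl1) had 29.4, 33.2 and 56.5 RPKM in the dFLEx tumors and 12.8 and 9.30 RPKM in the KP tumors, a log2 ratio of 1.85 (SE 0.61, adjusted p 0.308). Amhr2 had 11.5, 7.34 and 3.62 RPKM and 0.107 and 1.26 RPKM, a log2 ratio of 3.48 (SE 1.16, adjusted p 0.311), which was 6.13 without 3802, 2.73 without 3800 and 2.79 with the length and GC trend removed. Of 22 tested extracellular modulators, Bmper, Crim1 and Bmp1 were higher and Htra1 lower at an unadjusted p under 0.05. Bmper had a log2 ratio of 2.18 (SE 0.65, adjusted p 0.256), Crim1 of 2.16 (SE 0.90, adjusted p 0.449), Bmp1 (a protease that cleaves chordin and procollagen) of 1.35 (SE 0.58, adjusted p 0.472) and Htra1 of -1.41 (SE 0.55, adjusted p 0.411). Crim1 was at 1.12 without 170025 and 3.01 without 3800, Bmp1 at 2.09 without 3800, and Htra1 at -2.09 with the length and GC trend removed.

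Among 9 tested ligands outside the 50, Inha and Gdf15 were higher and Lefty1 and Gdf3 lower at an unadjusted p under 0.05, with log2 fold changes of 2.51 (SE 0.99, adjusted p 0.418), 1.75 (SE 0.67, adjusted p 0.406), -1.99 (SE 0.61, adjusted p 0.262) and -2.67 (SE 0.97, adjusted p 0.367). Inha rested on 4 counts in 3802 and was at 4.92 without 3800, 1.73 without 3802 and 1.72 with the length and GC trend removed. Gdf3 was at -3.99 without 170019 and -1.43 without 3802. With the trend removed Gdf15 was at 0.73 and Lefty1 at -2.84. Of the 17 intracellular regulators, Tgif1, a Smad corepressor, was lower, with 1.98, 3.18 and 3.15 RPKM and 13.9 and 6.40 RPKM and a log2 ratio of -1.87 (SE 0.61, adjusted p 0.298), or -1.04 without 3800. The other 16, Smurf1, Smurf2, Ski and Skil among them, had unadjusted p-values above 0.05.

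Markers of other cell types and matrix lineages moved with the groups, and their part in the differences of the members was not tested. The 6 chondroid genes summed to 562 to 2461 CPM in dFLEx tumors and 138 to 157 CPM in KP tumors. Sox9, which encodes a transcription factor and no matrix protein, made up most of the KP sums, at 155 CPM in 3800 and 132 CPM in 3802. It had 34.5 to 68.4 CPM in dFLEx tumors. Of the 6, 4 were higher (Acan, Col2a1, Col9a1 and Col11a2) and Sox9 lower at an unadjusted p under 0.05. Of 6 osteoid genes, Alpl and Ibsp were higher and Spp1, Dmp1 and Phex lower at that threshold, and Bglap was at 0 in 3800. Fibroblast genes summed to 397 to 465 CPM against 101 to 178 CPM with 3 of 6 higher, and pericyte genes to 588 to 1016 CPM against 86.9 to 353 CPM with 1 of 5 higher. Muscle genes summed to 9413 to 36345 CPM against 1576 to 4845 CPM with 5 of 9 higher. Macrophage genes summed to 1066 to 1262 CPM against 2624 to 5249.9 CPM with 4 of 8 lower, T cell genes to 6.79 to 9.17 CPM against 11 to 48.6 CPM with 3 of 6 lower, and epithelial genes to 4.41 to 9.53 CPM against 198 to 342 CPM with 3 of 5 lower. The 6 proliferation genes overlapped, at 377 to 783 CPM and 202 to 797 CPM. At an unadjusted p under 0.05, 5.65% of all tested genes were higher in dFLEx tumors and 4.93% lower. None of the fibroblast, pericyte, muscle, endothelial, macrophage, T cell or proliferation genes passed the adjusted threshold (edgeR). Acan and Alpl passed it as higher, and Krt8 and Krt18 as lower.

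Promoters were read to describe which members carry the octamers that CIC binds or 2 motifs tied to Smads. The 250 bases before the start of the canonical transcript (GENCODE M39, GRCm39) were searched on both strands for the CIC octamers TGAATGAA, TGAATGGA, TCAATGAA and TCAATGGA, and for GGCGCC and GTCTAGAC. The last 2 read the same on both strands. A CIC octamer was found in 1 of the 50 members, Bmp7, or 2.00%, against 3.04% of 21770 promoters of protein-coding genes. Over the 16857 of these whose genes were tested, as all members were, the share was 2.66%. GGCGCC was found in 12 of the 50 (Acvr1, Acvr1b, Bmpr1a, Bmpr2, Grem1, Id4, Ltbp4, Smad2, Smad4, Smad5, Smad9 and Tgfbr1), or 24.0%, against 9.31% of all, and GTCTAGAC in 1, Smad7, or 2.00%, against 0.239%. Over the tested genes the shares were 11.2% for GGCGCC and 0.267% for GTCTAGAC. The 12 with GGCGCC include Grem1, lower in dFLEx tumors, and Id4 and Smad9, higher in them. GGCGCC holds G and C alone, and G and C made up 70.8%, 75.6% and 71.2% of the windows of Grem1, Id4 and Smad9. The part of base content in the share of GGCGCC was not tested. A match is a description of letters in this window and not a site of binding.

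The promoters of the members that were at an unadjusted p under 0.05 and held a match, other than Smad7, are shown to place the match against the start, 5′ to 3′ on the strand of the gene, with the matched motif in capitals. That of Bmp7 is chr2:172782411-172782660 on the minus strand, that of Grem1 is chr2:113589001-113589250 on the minus strand, that of Id4 is chr13:48414308-48414557 on the plus strand and that of Smad9 is chr3:54662713-54662962 on the plus strand. Their matches begin 79, 71, 114 and 11 bases before the start.
Bmp7: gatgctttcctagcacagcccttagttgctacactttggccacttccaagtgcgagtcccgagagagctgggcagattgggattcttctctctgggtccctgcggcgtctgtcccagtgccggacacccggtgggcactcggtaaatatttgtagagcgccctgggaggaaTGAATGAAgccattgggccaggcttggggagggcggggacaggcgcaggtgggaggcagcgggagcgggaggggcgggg
Grem1: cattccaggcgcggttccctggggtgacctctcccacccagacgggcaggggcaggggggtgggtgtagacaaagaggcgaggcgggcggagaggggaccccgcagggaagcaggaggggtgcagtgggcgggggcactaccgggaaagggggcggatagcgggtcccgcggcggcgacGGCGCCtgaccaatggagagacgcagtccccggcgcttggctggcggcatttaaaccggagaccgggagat
Id4: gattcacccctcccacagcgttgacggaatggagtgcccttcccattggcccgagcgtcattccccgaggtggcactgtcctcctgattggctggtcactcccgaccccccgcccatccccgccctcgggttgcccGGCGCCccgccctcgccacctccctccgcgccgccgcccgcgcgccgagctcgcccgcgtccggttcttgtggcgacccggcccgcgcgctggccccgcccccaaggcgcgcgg
Smad9: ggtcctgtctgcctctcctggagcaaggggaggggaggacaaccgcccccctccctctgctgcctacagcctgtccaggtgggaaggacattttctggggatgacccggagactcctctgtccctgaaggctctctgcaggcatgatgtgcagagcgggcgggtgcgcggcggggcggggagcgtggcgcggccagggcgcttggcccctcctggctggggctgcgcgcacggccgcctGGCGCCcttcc
The Bmp7 match TGAATGAA is the only one of the 4 CIC octamers among the 50 windows, or 2.00%, against 2.66% of the promoters of tested genes. Its part in the level of Bmp7 was not tested. The canonical starts lie 296, 9, 146 and 40 bases upstream of the deposited spans of Bmp7, Grem1, Id4 and Smad9. The windows of Bmp4, Id1, Id3, Smad6, Acvrl1, Tgfb3, Gdf10 and Ltbp1, the other members at an unadjusted p under 0.05, held none of the 6 motifs. For Ltbp1 the distance was -173242 bases, a canonical start inside the deposited span, so its window does not precede that span.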

How the data were processed

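Gene expression was measured by bulk RNA-seq in flash-frozen tumors. Per the labels and the study's methods, the authors trimmed reads with Trimmomatic (version 0.39), aligned them with STAR (version 2.7.10a) to mm39 extended by the transgene, and deposited raw counts per gene from featureCounts (Subread version 2.0.3). These deposited counts, per the file headers, ignore strand, count each mate as a read, and leave out reads with several alignments or over several genes, so overlapping and antisense genes lose reads. Symbols came from GENCODE M39 by Ensembl identifier (56017 of 56750 features). Gene positions are given on GRCm39, as deposited.

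Libraries of 1 tumor were added together. After filterByExpr and TMM scaling, edgeR (version 4.0.16) quasi-likelihood F tests (glmQLFit, glmQLFTest) compared the groups, and p-values of the 24743 genes kept were adjusted by Benjamini-Hochberg (called at 0.05). SE was obtained as the size of the log2 fold change over the square root of F. The code was tested on simulated data. A count of 3, the limit for a gene with no counts, equals between 0.0648 and 0.146 CPM, which covers counting error only. A two-sided exact permutation test over 3 and 2 tumors cannot give a p under 0.05 and was not used.

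Every member is accounted for by role. A fold change is given for members with an unadjusted p under 0.05, or without overlap between groups and with a log2 fold change of at least 1 in size, and for other pathway genes with an unadjusted p under 0.05 and no overlap. Some items are not reported here, and counts of other pathway genes leave them out. Members and lists were chosen with earlier results of these data known. Alternatives were other scalings (library totals, DESeq2 size factors, upper quartile), other filters, DESeq2 (version 1.42.0), libraries as samples, a duplicate-number block, 1 library per tumor and each tumor left out. Removal of a GC and length trend (loess, span 0.3) was chosen after seeing the data.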

Additional observations from a re-analysis of the deposited data

How the results depend on the processing

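Of the 50 genes, 0 were called in either direction on tumor sums, and this was also so with library totals, DESeq2 size factors, the upper quartile, a mean of at least 1 CPM (48 of the 50 tested) and 1 library per tumor. Without a filter 5 were called higher and 1 lower, where 529 and 351 of all 44382 tested genes were. DESeq2 on tumor sums called 7 and 1, against 3.78% and 2.88% of the genes it tested. With the trend on GC content and length removed 2 and 0 were called, where 86 and 87 of all 24743 tested genes were. With libraries as independent samples 11 were called higher and 2 lower by edgeR and by DESeq2 alike, where duplicates of 1 RNA count as replicates. Over all genes edgeR then called 1609 higher and 1735 lower of 19538 tested, and DESeq2 2414 and 2424 of 23699. With tumors left out in turn 0 to 1 were called higher and 0 to 1 lower, the calls being Bmp4 and Grem1 without 3802, where the lone KP tumor is assumed to vary like the dFLEx tumors. Of the other pathway genes, 0 were called on tumor sums, 6 higher and 1 lower without a filter, 7 and 1 by DESeq2 on tumor sums, 1 and 0 with the trend removed, 12 and 6 with independent libraries in edgeR, 16 and 9 in DESeq2, and 0 to 2 higher and 0 to 1 lower with tumors left out.

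Over all genes 45 were called, against 880 without a filter, 80 at a mean of at least 1 CPM, 1408 by DESeq2 on tumor sums, 3344 and 4838 with independent libraries in edgeR and DESeq2, 173 with the trend removed, and 0 to 414 with tumors left out (0 without 170019 or without 170024, 9 without 170025, 8 without 3800 and 414 without 3802). With the duplicate number as a block and libraries as samples, 2476 of 19538 genes were called, 1199 higher and 1277 lower. Of the members 11 were higher and 2 lower there, and of the other pathway genes 11 and 6. Differences between duplicates correlated between tumors at -0.01 to 0.09, so the number does not pair samples. The cause of these differences in counts was not tested.

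The 13 named members kept their sign in all 16 alternatives except Ltbp1, which was 0.31 without 3800 and ranged from -3.09 to 0.31 with tumors left out. The median of all genes was -0.18 with TMM, -0.47 with library totals, -0.34 with the upper quartile and -0.26 with DESeq2 size factors, and the 13 kept their sign under each. Depth limits the low genes: Bmp3, Bmp5, Bmp6, Bmp7, Gdf5, Mstn, Smad9, Chrdl1 and Fstl3 had under 30 counts in at least 1 tumor, and Bmp7 had 21 in 3802.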
